A study of Mus musculus with 10 samples.

Results

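The 9 genes described here encode the liver growth hormone receptor (Ghr), its kinase (Jak2), its STAT factors (Stat5a and Stat5b), feedback inhibitors (Socs2 and Cish) and transcription factors of the growth hormone axis (Bcl6, Onecut1 and Cux2). They were chosen by name from a count table of 43629 genes, with the differences between cachectic and non-cachectic livers of these mice already known, so their differences between the groups are given as a description, without p-values. Where it is said which of them fell under the threshold used for all genes, this describes the fit and is not a test of the choice. All 9 were among the 14143 genes that passed the filter on low counts. RNA was measured by RNA-seq in livers of male KL mice, an inducible model of lung cancer on an FVB background that carries, among its Cre-dependent alleles, a floxed Lkb1 gene. Lung tumours were induced in adult mice by intranasal adenovirus that expresses Cre recombinase from a CMV promoter, so recombination was not restricted to one lung cell type. Both groups carried tumours and no tumour-free livers were included. The group called cachectic (CACS) had lost more weight from its peak than a cut-off set in the study, and the non-cachectic group (NCACS) had not, so weight loss defined the groups. The 5 NCACS mice (numbers 11 to 15) had lost between 3 and 14% of their weight and the 5 CACS mice (numbers 16 to 20) between 29 and 33%. Total counts per liver ran from 31945328 to 38306888 in NCACS and from 31459179 to 40746178 in CACS mice. The labels give neither a batch nor the hour at which a liver was collected.

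Growth hormone binds a receptor on hepatocytes that holds the kinase JAK2, and JAK2 phosphorylates STAT5A and STAT5B, which enter the nucleus and switch on target genes such as Igf1, Socs2 and Cish. SOCS2 and CISH in turn damp the signal from the receptor, which closes a feedback loop. In male mice growth hormone is released in pulses, whereas in females it is released more evenly, and many liver genes are sex-biased as a result. BCL6 is a repressor that is higher in male liver and competes with STAT5 for DNA. CUX2 is a repressor that is higher in female liver, and ONECUT1, also called HNF6, is a liver transcription factor that depends on growth hormone.

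STAT5 binds palindromic sites of the form TTCNNNGAA, a pattern that reads alike on both strands. It was searched in the RefSeq promoter windows of build GRCm38.p6, each running from 250 bases before to 50 bases after a gene start. The table held 13 windows for 8 of the 9 genes, and no entry for Socs2. Of all 32851 windows, 8.3% held at least 1 match, 0.457% at least 2 and 0.0335% at least 3. Windows of 2 of the genes, Cish and Bcl6, held a match, and these are printed 5′ to 3′ on the strand of the gene, with the matches in capitals, because the letters are the target pattern of the pathway. The Cish stretch, chr9:107296655-107296684 on the plus strand, lies in an exon of Cish in GENCODE M21 and holds 2 matches, which begin at bases 1 and 12 counted from the RefSeq start. The Bcl6 stretches lie on the minus strand. The one before the outer start, chr16:23988853-23989102, is upstream of the annotated gene and holds 1 match, whose first base is 118 bases before the start.
Cish: agttTTCCTGGAAagTTCTTGGAAatctgt
Bcl6, outer start: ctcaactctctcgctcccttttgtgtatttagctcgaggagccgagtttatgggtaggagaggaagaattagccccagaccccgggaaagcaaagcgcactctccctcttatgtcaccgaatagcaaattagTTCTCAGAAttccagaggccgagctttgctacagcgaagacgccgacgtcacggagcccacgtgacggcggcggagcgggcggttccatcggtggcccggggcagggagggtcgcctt
Bcl6, inner start: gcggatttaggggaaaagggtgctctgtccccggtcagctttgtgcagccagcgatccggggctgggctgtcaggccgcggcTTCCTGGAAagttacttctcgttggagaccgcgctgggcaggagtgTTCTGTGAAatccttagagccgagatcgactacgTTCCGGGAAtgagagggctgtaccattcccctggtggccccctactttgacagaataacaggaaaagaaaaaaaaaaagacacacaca
The last stretch, chr16:23981284-23981533, lies inside the Bcl6 gene but in none of its annotated exons, and holds 3 matches, whose first bases are 168, 122 and 88 bases before the inner start. A match describes letters in a window and is no measurement of binding.

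Socs2 was several-fold higher in CACS livers without overlap between the groups, Cux2 was far higher in some CACS livers and not in others, and Ghr was lower in CACS livers with a slight overlap. Levels are given as normalised read counts (CPM, with libraries scaled to a common size by TMM), and differences as log2 fold changes of CACS over NCACS from edgeR, each with its standard error. Of the 9 genes, 3 had an adjusted p under 0.05 in edgeR's quasi-likelihood test over all genes (Socs2 and Cux2 higher, Ghr lower), and only Socs2 had no overlap between groups. Over all genes tested 3.8% were called, 1.89% as higher and 1.92% as lower, and 7.07% had groups that did not overlap, 3.95% with CACS higher and 3.13% with CACS lower. Because the 9 genes were chosen on this contrast, nothing follows from their count against this background. Their median log2 fold change was -0.18, beside -0.005 over all genes tested.

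**Figure D1:**
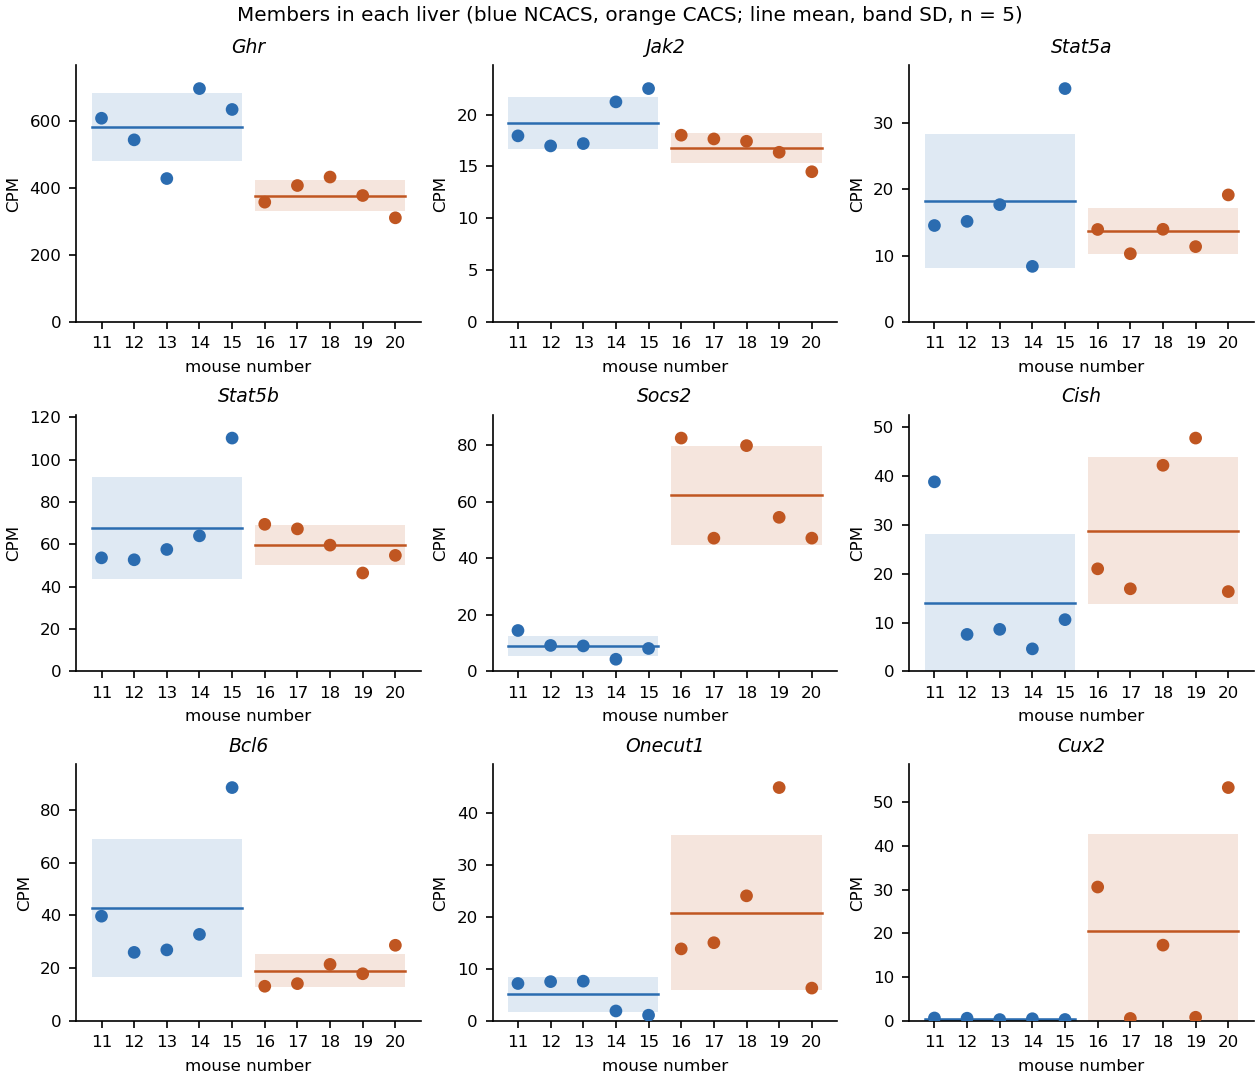
TMM-normalised CPM (y axis, from 0) of each of the 9 genes in every liver (x axis, mouse number), with NCACS livers in blue and CACS livers in orange, the group mean as a line and the SD (n = 5) as a band that is drawn no lower than 0. Socs2 separates the groups, from 4.28 to 14.4 CPM in NCACS and from 47.1 to 82.5 CPM in CACS livers, whereas Cux2 is at 17.3 CPM or more in CACS mice 16, 18 and 20 and under 1 CPM in the other CACS mice.

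Ghr (ENSMUSG00000055737, minus strand of chromosome 15, 3317760 to 3583492 in GRCm38) encodes the receptor itself. Its level was 608, 543, 428, 696 and 634 CPM in NCACS mice 11 to 15, and 357, 407, 432, 377 and 311 CPM in CACS mice 16 to 20. The 4 highest livers were NCACS livers, and the groups overlapped only in that CACS mouse 18 lay just above NCACS mouse 13. The means were 582 ± 102 CPM (SD, n = 5) and 377 ± 46.8 CPM (SD, n = 5), so the CACS mean was 0.648 times the NCACS mean. The fitted log2 fold change was -0.63 (SE 0.15). It ran from -0.72 without NCACS mouse 13 to -0.55 without NCACS mouse 14, and its adjusted p stayed under 0.05 in 2 of the 10 fits that left out 1 mouse, those without NCACS mouse 13 and without CACS mouse 18. With raw library totals in place of TMM the log2 fold change was -0.61 and the adjusted p was no longer under 0.05. In bulk tissue, fewer cells of a type and less RNA per cell cannot be told apart.

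The kinase gene Jak2 (ENSMUSG00000024789, plus strand of chromosome 19, 29251828 to 29313080) varied little. Its level was 17.95, 16.98, 17.2, 21.2 and 22.5 CPM in NCACS mice 11 to 15 and 18.01, 17.7, 17.4, 16.4 and 14.5 CPM in CACS mice 16 to 20. NCACS mice 14 and 15 were the highest and CACS mouse 20 the lowest, and the remaining livers overlapped. The log2 fold change was -0.19 (SE 0.11), and the coefficient of variation was 13.2% among NCACS and 8.49% among CACS livers, the lowest of the 9 genes in each group.

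Stat5a and Stat5b, which encode the STAT factors that carry the signal from the receptor to DNA, overlapped widely between groups. Stat5b (ENSMUSG00000020919, minus strand of chromosome 11, 100780731 to 100850724), the main form in liver, was at 53.6, 52.7, 57.6, 64.05 and 110 CPM in NCACS mice 11 to 15. In CACS mice 16 to 20 it was at 69.5, 67.3, 59.7, 46.5 and 54.8 CPM. NCACS mouse 15 stood far above every other liver. The log2 fold change of Stat5b was -0.18 (SE 0.20), and without NCACS mouse 15 it turned to 0.066.

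Stat5a (ENSMUSG00000004043, plus strand of chromosome 11, 100859351 to 100885169) had levels of 14.5, 15.2, 17.7, 8.37 and 35.2 CPM in NCACS mice 11 to 15. In the CACS livers the levels were 13.9, 10.3, 13.97, 11.4 and 19.2 CPM. The highest and the lowest liver both belonged to the NCACS group, mouse 15 and mouse 14. Its log2 fold change was -0.40 (SE 0.32) with all livers and -0.02 without NCACS mouse 15. Exons of Stat5a overlap those of Stat3 on the opposite strand, and Stat3 reached 9367 counts in a liver, whereas Stat5a reached at most 1140 in any. The strand setting of the counting was not given, so Stat5a counts are uncertain. Little sequence is common to the pair, since 3.44% of the 100-base windows of Stat5a and 4.79% of those of Stat5b exons occur in the other gene.

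Socs2 (ENSMUSG00000020027, minus strand of chromosome 10, 95385362 to 95417180), a STAT5 target whose product inhibits the receptor, had the clearest separation. Levels in NCACS mice 11 to 15 were 14.4, 9.16, 8.99, 4.28 and 8.09 CPM. Those in CACS mice 16 to 20 were 82.5, 47.1, 79.9, 54.5 and 47.1 CPM. The lowest CACS liver was above the highest NCACS liver, and the ratio of the group means was 6.92. The means were 8.99 ± 3.64 CPM (SD, n = 5) in NCACS and 62.2 ± 17.6 CPM (SD, n = 5) in CACS livers, with at least 142 counts in each. The log2 fold change of 2.79 (SE 0.29) ran from 2.61 without NCACS mouse 14 to 3.03 without NCACS mouse 11, with an adjusted p under 0.05 in all 10 of these fits and in all 7 fits with another tool, scaling or filter.

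Cish (ENSMUSG00000032578, plus strand of chromosome 9, 107296026 to 107302784), the related feedback inhibitor, showed a smaller difference that turned on 1 liver. It was at 38.8, 7.57, 8.60, 4.61 and 10.6 CPM in NCACS mice 11 to 15 and at 21.01, 16.9, 42.2, 47.8 and 16.3 CPM in CACS mice 16 to 20. NCACS mouse 11 lay among the CACS livers, and the other NCACS livers lay below all of them. With all livers the log2 fold change was 1.04 (SE 0.54), and without NCACS mouse 11 it was 1.88, the only fit of those leaving out 1 mouse with an adjusted p under 0.05. NCACS mouse 11 also had the highest Socs2 of its group. A pseudogene on the opposite strand, Gm17040, overlaps Cish exons but had at most 21 counts in a liver, beside at least 153 for Cish.

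Bcl6 (ENSMUSG00000022508, minus strand of chromosome 16, 23965052 to 23988852), whose product represses STAT5 targets, was at 39.7, 25.97, 26.9, 32.8 and 88.5 CPM in NCACS mice 11 to 15. It was at 13.1, 14.1, 21.4, 17.9 and 28.7 CPM in CACS mice 16 to 20. The 4 lowest livers were CACS livers, and CACS mouse 20 was above NCACS mice 12 and 13. The log2 fold change was -1.17 (SE 0.35) and did not have an adjusted p under 0.05, and without NCACS mouse 15 it was -0.72. The means were 42.8 ± 26.1 and 19.03 ± 6.30 CPM (SD, n = 5 each), and at this threshold DESeq2 was the only tool or setting tried that called Bcl6.

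For Onecut1 (ENSMUSG00000043013, plus strand of chromosome 9, 74861921 to 74891781) the levels were 7.18, 7.54, 7.63, 1.90 and 1.08 CPM in NCACS mice 11 to 15 and 13.8, 15.03, 24.1, 44.9 and 6.30 CPM in CACS mice 16 to 20. CACS mouse 20 lay within the NCACS range and the other CACS livers lay above it, with CACS mouse 19 the highest. The log2 fold change was 2.03 (SE 0.59), with values from 1.54 without CACS mouse 19 to 2.27 without CACS mouse 20. It was called by DESeq2 but not by edgeR with all livers or with any 1 mouse left out.

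Cux2 (ENSMUSG00000042589, minus strand of chromosome 5, 121856366 to 122050102) had few counts in every NCACS liver. It stood at 0.653, 0.597, 0.291, 0.482 and 0.309 CPM in NCACS mice 11 to 15, which corresponds to between 9 and 24 counts. In CACS mice 16 to 20 it stood at 30.6, 0.551, 17.3, 0.817 and 53.4 CPM. CACS mice 16, 18 and 20 thus had levels far above all NCACS livers, CACS mouse 17 lay within the NCACS range, and CACS mouse 19 lay just above it. The fitted log2 fold change was 5.44 (SE 1.14), and it ran from 4.70 without CACS mouse 20 to 5.75 without CACS mouse 17. The ratio of the means was 44.1 and the coefficient of variation among CACS livers was 108%, the highest of the 9 genes in that group. Its adjusted p stayed under 0.05 in 3 of the 10 fits with 1 mouse left out, those without CACS mouse 17, 18 or 19, and limma-voom, with a log2 fold change of 3.82, did not call it.

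**Figure D2:**
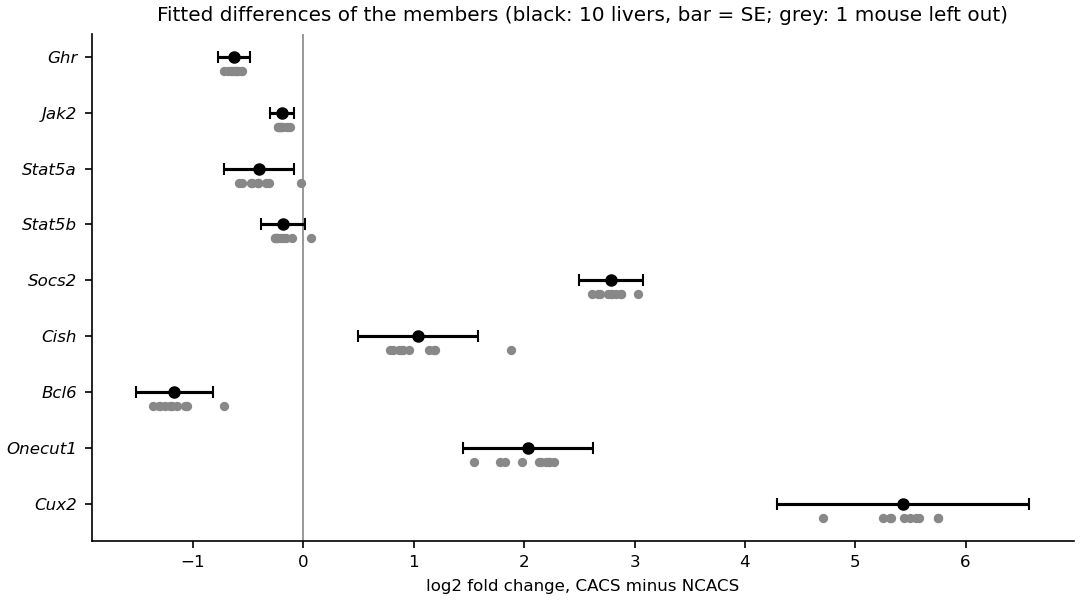
Fitted log2 fold change of CACS over NCACS (x axis) for each gene (y axis), with the fit over all 10 livers in black (bar, SE) and the 10 fits that each left out 1 mouse in grey. The grey points of Socs2 stay between 2.61 and 3.03, while single points stand apart for Stat5a, Stat5b and Bcl6 (without NCACS mouse 15) and for Cish (without NCACS mouse 11, 1.88).

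Compared per length of exon, Ghr had the highest level of the 9 genes, at 64.3 ± 11.3 CPM per kb in NCACS livers and 41.6 ± 5.17 CPM per kb in CACS livers (SD, n = 5). Stat5b was next in both groups, at 12.2 ± 4.37 and 10.8 ± 1.70 CPM per kb, and its range over livers did not reach that of Ghr. In NCACS livers the order then ran through Bcl6 (6.38), Jak2 (3.81), Stat5a (2.55), Cish (2.19), Onecut1 (1.23), Socs2 (0.944) and Cux2 (0.0463 CPM per kb). Each of these ranges overlapped that of its neighbour except between Socs2 and Cux2. In CACS livers Socs2 was the third, at 6.53 ± 1.85 CPM per kb, followed by Onecut1 (5.06), Cish (4.496), Jak2 (3.34), Bcl6 (2.84), Cux2 (2.04) and Stat5a (1.93 CPM per kb), and all neighbours after Ghr overlapped.

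Weight change within a group was not used to choose the genes, so its relation to them was tested, with weight change centred within each group, in an edgeR fit across all genes. Weight change had an SD of 4.64 percentage points among NCACS and 1.82 among CACS mice. The slopes therefore rest mostly on the NCACS mice and say little about weight loss among CACS mice. None of the 9 genes passed an adjusted p of 0.05, 2 had an unadjusted p under 0.05 in edgeR and 1 of these in limma-voom. Over all genes 0.0141% were called (2 of 14143), with 1078 at an unadjusted p under 0.05. Stat5a had a slope of -0.125 log2 units per percentage point (SE 0.0337, unadjusted p = 0.00349, adjusted p = 0.306, both from edgeR), that is, higher levels with more weight lost. Without NCACS mouse 15, which had lost the most weight of its group, this slope was -0.070 (adjusted p = 0.654 from edgeR), and over the fits with 1 mouse left out its adjusted p ran from 0.0903 to 0.654. Stat5b had a slope of -0.061 (SE 0.0254, adjusted p = 0.612 from edgeR), which was 0.0008 without NCACS mouse 15. For Ghr the slope was 0.0134 (SE 0.0225) and for Socs2 -0.027 (SE 0.0469), with adjusted p-values of 0.954 and 0.955 from edgeR. With 1 mouse left out these slopes changed sign, the one of Ghr running from -0.0046 without NCACS mouse 14 to 0.0459 without NCACS mouse 15 and that of Socs2 from -0.110 without NCACS mouse 11 (unadjusted p = 0.00695, adjusted p = 0.581 from edgeR) to 0.0223 without NCACS mouse 14. Over these 10 fits the adjusted p of Ghr was at least 0.664 and that of Socs2 at least 0.581.

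Other genes of the pathway were taken from lists and tested in the same edgeR fit, each adjusted p being over all genes tested. Of 12 other cytokine receptors tested, 1 rose and 1 fell. Lepr, the leptin receptor, was between 0.432 and 1.44 CPM in NCACS and between 2.37 and 8.42 CPM in CACS livers, without overlap (log2 fold change 2.07, SE 0.43, adjusted p = 0.0290). Lifr, the receptor for leukaemia inhibitory factor, was lower (-0.55, SE 0.13, adjusted p = 0.0414), also without overlap, and Prlr, the prolactin receptor and nearest relative of Ghr on the list, was at 0.36 (adjusted p = 0.399). With 1 mouse left out, Lepr kept an adjusted p under 0.05 in 6 of 10 fits, all but those without NCACS mouse 11, 13, 14 or 15 (up to 0.0610), and Lifr in 1, that without NCACS mouse 14 (up to 0.0907). The list median was 0.08, and 2 of 12 receptors without overlap compares with the 7.07% given above.

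Of 7 other kinases and STAT factors, Tyk2 alone passed, a JAK kinase that lay between 29.2 and 35.3 CPM in NCACS and between 22.9 and 27.9 CPM in CACS livers (log2 fold change -0.42, SE 0.090, adjusted p = 0.0314). It kept this call in 2 of 10 fits with 1 mouse left out, those without NCACS mouse 15 or CACS mouse 19, and its adjusted p was otherwise at most 0.0715. Jak1 had a log2 fold change of 0.003 and Stat3 of 0.11 (adjusted p = 0.986 and 0.782, edgeR), and the median of this list was also 0.003. None of 17 other SOCS proteins, phosphatases and PIAS proteins passed in edgeR or limma-voom, 1 passed in DESeq2 and 3 had an unadjusted p under 0.05 in edgeR. In this list Socs3, an inhibitor induced by STAT3, was at 0.27 (SE 0.44), the phosphatase gene Ptpn1 at 0.06 (SE 0.15) and Ptpn11 at 0.14 (SE 0.069) on the log2 scale. Socs1 was below the filter, with between 2 and 23 counts in a liver. None of 11 adaptors and kinases that couple the receptor to other pathways passed in edgeR, DESeq2 or limma-voom, with 2 at an unadjusted p under 0.05 in edgeR, and Sh2b1, which binds JAK2, was at 0.17 (SE 0.099).

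Among target genes, Igf1, the circulating growth factor made under growth hormone control, was the only one of 11 tested genes of its axis to pass. Igf1 lay between 396 and 561 CPM in NCACS and between 599 and 910 CPM in CACS livers (log2 fold change 0.60, SE 0.15, adjusted p = 0.0437). It was called in 1 of the 10 fits with 1 mouse left out, that without CACS mouse 17, with adjusted p-values up to 0.0921 in the others. Igfals, which encodes the acid-labile subunit that carries IGF1 in blood, was at 0.08 (SE 0.24), Igfbp3 at -0.25 (SE 0.41) and Igfbp1 at 1.60 (SE 0.86), with adjusted p-values of 0.883, 0.768 and 0.305 from edgeR. None of 10 STAT5 targets known from several cell types passed in edgeR or limma-voom, and 1 passed in DESeq2. Of the 10, 4 had a positive and 6 a negative log2 fold change, with a median of -0.15. The 1 with an unadjusted p under 0.05 in edgeR was Ccnd1, which was lower in CACS livers (log2 fold change -1.36, SE 0.37, adjusted p = 0.0611). Among these targets the kinase gene Pim1 was at -0.29 (SE 0.39). Like Socs2, Igf1 was higher in each of the 5 CACS livers than in any NCACS liver.

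**Figure D3:**
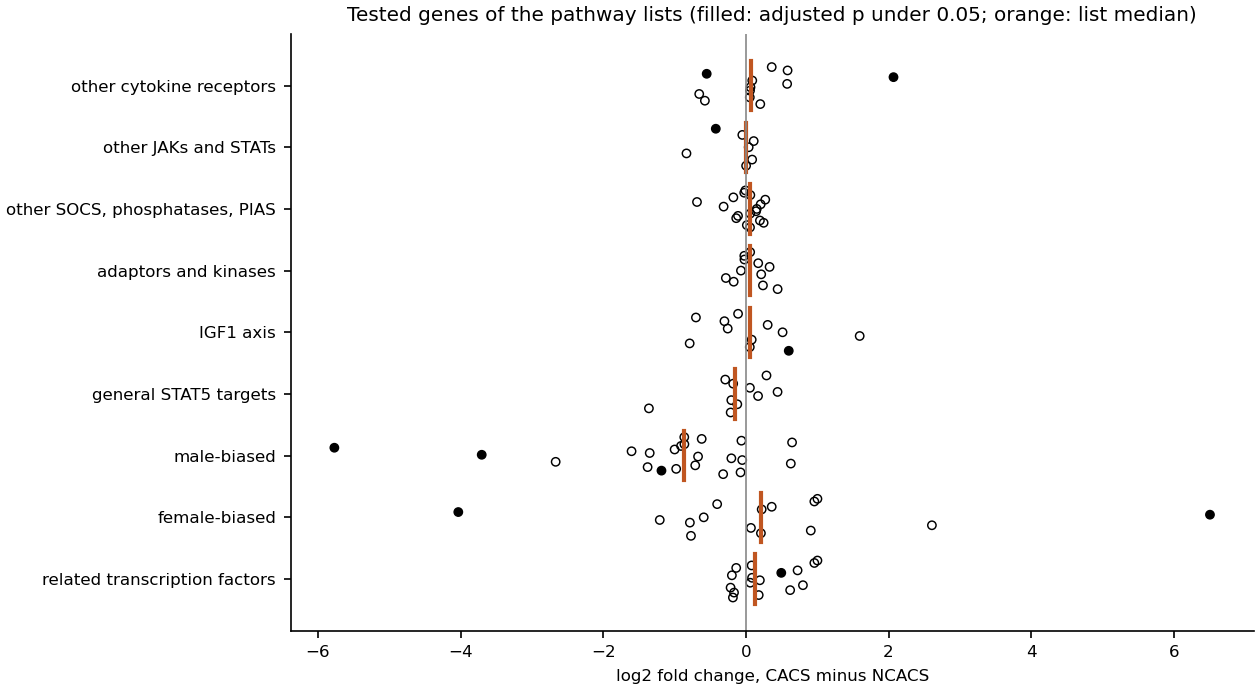
Log2 fold change of CACS over NCACS (x axis) of every tested gene in the pathway lists (y axis), filled where edgeR's adjusted p was under 0.05, with the list median as an orange bar. Most lists centre near 0, while the median of the male-biased list is -0.86.

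Liver genes that follow the sex pattern of growth hormone were described next. Of 22 tested male-biased genes 3 fell, beside 1.92% of all genes, and 20 had a negative log2 fold change, with a median of -0.86. For 8 of the 22 the CACS livers were all below the NCACS livers, beside 3.13% of all genes. This list was chosen with the largest changes in these livers known and is no independent evidence of a direction. Cyp2u1, a cytochrome P450, fell from 15.7 ± 2.45 to 6.89 ± 3.06 CPM (SD, n = 5 each; log2 fold change -1.18, SE 0.28, adjusted p = 0.0397) and kept its call in 2 of 10 fits with 1 mouse left out, those without CACS mouse 17 or 19 (otherwise up to 0.0830). The urinary protein genes Mup1 (log2 fold change -3.70, SE 0.69) and Mup7 (-5.77, SE 1.02) fell as well (adjusted p = 0.0220 and 0.0181, edgeR), but near-identical copies share reads and their split is uncertain. Without CACS mouse 19 the adjusted p of Mup1 was 0.0514 in edgeR, the highest over its alternatives, which went down to 2.82e-05, and Mup7 kept its call in all 10 such fits.

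Of 15 tested female-biased genes 1 rose and 1 fell, and 7 of the 22 listed did not pass the filter. The list was mixed, with 9 positive and 6 negative log2 fold changes and a median of 0.21, and no gene on it had groups without overlap. Trim24, singled out after its values were seen, was at 46.1, 16.4, 56.3, 24.8 and 47.9 CPM in CACS mice 16 to 20 and between 14.9 and 21.6 CPM in NCACS livers, and was not called (log2 fold change 1.003, SE 0.29, adjusted p = 0.0714). As for Cux2, the levels of CACS mice 16, 18 and 20 were the highest and that of CACS mouse 17 lay within the NCACS range. The Hao2 gene, of a peroxisomal oxidase, fell by 4.03 on the log2 scale (SE 0.87, adjusted p = 0.0323) with groups that overlapped and at most 11 counts in a CACS liver. The call for Hao2 held in 3 of 10 fits with 1 mouse left out, those without NCACS mouse 13 or 15 or CACS mouse 18 (otherwise up to 0.0746), and limma-voom did not make it. The weight lost was 32, 29, 33, 30 and 29% in CACS mice 16 to 20.

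**Figure D4:**
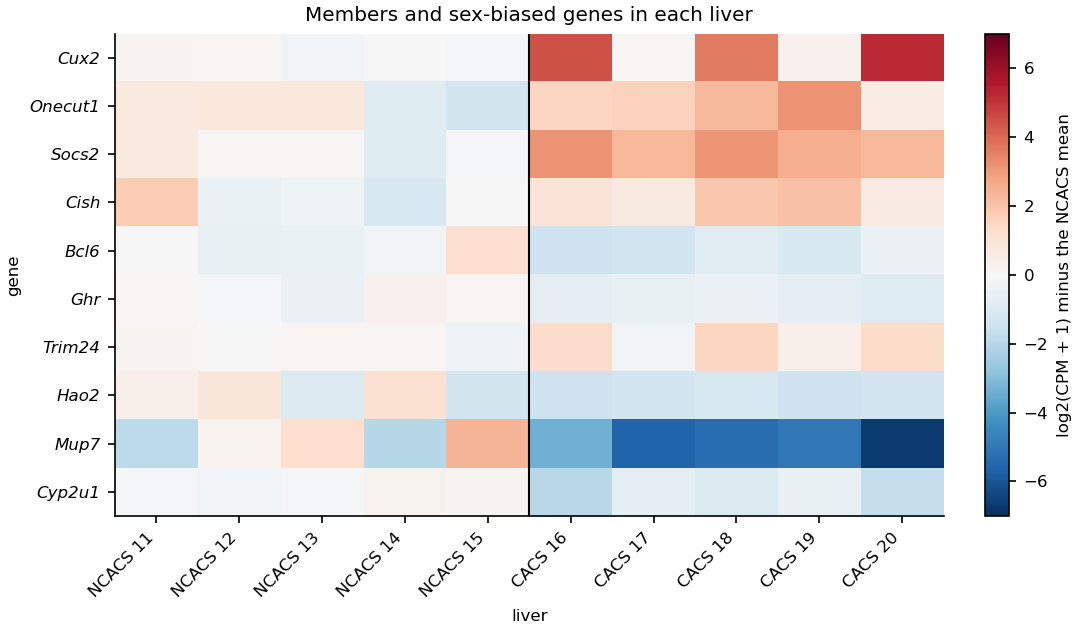
Level of 10 genes (y axis) in each liver (x axis), as log2(CPM + 1) minus the NCACS mean of the gene (colour, blue lower and red higher). Hao2, Mup7 and Cyp2u1 passed the test in their lists, and Trim24 was singled out after its values were seen. Cux2 and Trim24 are highest in CACS mice 16, 18 and 20, whereas Socs2 is raised in all 5 CACS livers and Mup7 is lowered in all of them.

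Of 16 tested paralogs and partners of the transcription factors, Hnf4a, a master regulator of hepatocyte genes, alone passed. It rose from between 568.1 and 688 CPM to between 729 and 1007 CPM (log2 fold change 0.50, SE 0.12, adjusted p = 0.0435) and kept its call in 1 of 10 fits with 1 mouse left out, that without CACS mouse 18 (otherwise up to 0.0974). Cux1, the paralog of Cux2 that most tissues express, was at -0.21 (SE 0.095) and Onecut2, the paralog of Onecut1, at 0.08 (SE 0.12), with adjusted p-values of 0.217 and 0.739 from edgeR. Beside these stand the log2 fold changes of 5.44 for Cux2 and 2.03 for Onecut1, and the difference between paralogs was not tested.

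The tested genes with the most similar profile over the 10 livers were found among 9234 genes with a mean of at least 5 CPM, by the mean absolute difference of log2 CPM after each gene was set to a mean of 0 and an SD of 1. These profiles share libraries and group differences, so the likeness is a description. Nearest to Ghr were Cat, which encodes catalase, Lactb2 and Rdx, at distances of 0.131, 0.135 and 0.143 SD. Cat was between 2190 and 3601 CPM in NCACS and between 1579 and 2209 CPM in CACS livers, again with NCACS mouse 13 the lowest of its group. The nearest genes to Socs2 were Gde1, Dcun1d3 and Peg3 at 0.183, 0.232 and 0.234 SD, and among those nearest to Cux2 were Fmo2 and Cnst at 0.207 and 0.260 SD. Fmo2 was at 107, 14.98, 65.4, 35.6 and 209 CPM in CACS mice 16 to 20, in the same order over these mice as Cux2, and at most 14.2 CPM in NCACS livers.

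Marker genes of cell types were summed to describe what else moved with the groups. Hepatocyte markers summed to between 61955 and 111300 CPM in NCACS and to between 105447 and 128656 CPM in CACS livers. Such a sum mostly follows its most abundant gene, here Alb, at 45741 to 88873 CPM in NCACS and 82140 to 107315 CPM in CACS livers. Of the 5 hepatocyte markers 4 had a positive and 1 a negative log2 fold change, and none was called. All 6 Kupffer cell markers had negative log2 fold changes and sums of 164 to 263 and 93.1 to 192 CPM, and Cd5l passed (adjusted p = 0.0374, edgeR). Sums of T and B cell markers were 2.82 to 5.69 and 1.24 to 3.07 CPM, and those of neutrophil markers 1.29 to 11.8 and 1.01 to 2.32 CPM. Lung epithelium markers summed to 1.63 to 5.75 and 1.83 to 8.72 CPM. Of these, Sftpa1 rose from at most 1.54 CPM to at least 1.72 CPM (adjusted p = 0.0323, edgeR). Sftpc (log2 fold change 0.44) and Scgb1a1 (-0.97) were not called, and Sftpb and Nkx2-1 did not pass the filter. The sums of sinusoidal endothelial markers were 120 to 162 and 152 to 198 CPM, those of stellate cell markers 142 to 245 and 154 to 240 CPM, and those of cholangiocyte markers 33.6 to 52.7 and 20.3 to 49.4 CPM. Stellate cell markers were split, with 3 positive and 3 negative log2 fold changes. No marker was at 0 counts in every liver. The part of these cell types in the levels of the 9 genes was not tested.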

How the data were processed

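RNA from the livers of male KL mice, 5 NCACS and 5 CACS, was sequenced from stranded poly(A) libraries as single reads. According to the submitters' processing notes, the authors aligned reads to GRCm38 with STAR 2.4.1d, counted them per gene with HTSeq 0.6.1 and deposited raw counts without normalisation. The annotation release and the strand setting were not given in the sources used here, so overlapping genes are uncertain. Symbols and loci were read from GENCODE M21 (GRCm38), where 1081 of the 43629 identifiers had no match, and 0 columns of the table were left unused.

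Counts were filtered with filterByExpr, scaled by TMM and fitted with edgeR 4.0.16 (R 4.3.3, limma 3.58.1), and the threshold was a Benjamini-Hochberg adjusted p under 0.05 in its quasi-likelihood test over 14143 genes. The study tested with DESeq2, here an alternative (1.42.0). Its liver RNA-seq also included KL livers deposited in another series, which were not used here. Its batch correction was not repeated because the labels give no batch. Log2 CPM used a prior count of 2. The fits were tested on simulated data in which 200 genes were changed 4-fold. Of these, edgeR recovered 186 with 3 false calls and limma-voom 182 with 2. DESeq2 recovered 187 but made 25 false calls. The counts were simulated once, with the spread of each gene as estimated by edgeR, so the tools cannot be ranked fairly by these numbers. Calls made by DESeq2 alone are less certain because edgeR and limma-voom did not repeat them. Replicates are separate mice, and no 2 livers of a group were duplicates, since chi-square per degree of freedom was at least 50.7 for each pair. Counting error was small beside the spread of mice except for genes with few counts, such as Cux2.

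The 9 genes and all lists were chosen with earlier results of these data known. Named were the 9 genes, up to 4 genes per pathway list past the threshold with the smallest adjusted p, 19 further pathway genes whatever their values, and the 3 genes nearest in profile to each of the 9 that passed. Some of the items so named are not reported here. A gene on several lists counts in each. As alternatives, each mouse was left out in turn, the test was replaced by DESeq2 or limma-voom, TMM by RLE factors, upper-quartile factors or raw totals, and the filter by none or by a minimum of 10 counts in all livers, and other thresholds were set.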

Additional observations from a re-analysis of the deposited data

Results flagged for a closer look

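Among 18 combinations of a gene and a group of 5 livers, 1 held a liver that stood apart by Dixon's criterion, which chance meets in about 1 in 20 groups. Stat5b in NCACS mouse 15, at 110 CPM, was separated from the next liver of its group, mouse 14 at 64.05 CPM, by 0.736 of the range of the group on the log2 scale, above the critical value of 0.710. The same liver had the highest Stat5a (35.2 CPM), Bcl6 (88.5 CPM) and Jak2 (22.5 CPM) and the lowest Onecut1 (1.08 CPM) of its group, and this mouse had lost the most weight among NCACS mice (14%). Whether these values share a cause was not tested.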

How the results depend on the processing

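No paired analysis was possible because no mouse number occurs in both groups. The log2 fold changes of 8 of the 9 genes kept their sign under every alternative in which they were fitted. That of Stat5b ran from -0.26 to 0.066 with 1 mouse left out, the latter without NCACS mouse 15. The filter of at least 10 counts in every liver removed Cux2, and 2 of the 9 genes were called under it. Of the 9 genes, 5 were called with DESeq2, 5 at an adjusted p under 0.1, 1 at an adjusted p under 0.01, and between 1 and 3 with 1 mouse left out. DESeq2 called 1386 genes in all, 672 higher and 714 lower, and without a filter 173 were called as higher. With 1 mouse left out edgeR called between 178 and 519 genes, between 79 and 246 of them higher and between 96 and 273 lower. DESeq2 called 1 gene among the SOCS proteins, phosphatases and PIAS proteins, 1 of the general STAT5 targets, 9 male-biased genes, 5 female-biased genes and 3 related transcription factors. Without a filter 1 cytokine receptor, 0 genes of the IGF1 axis and 0 related transcription factors were called, by upper-quartile factors 0 of the IGF1 axis, by raw totals 0 of the kinases and STAT factors, and by limma-voom or with at least 10 counts in every liver 0 female-biased genes, Hao2 being removed by that filter. Leaving out 1 mouse gave 0 to 1 calls among cytokine receptors, among kinases and STAT factors, in the IGF1 axis, among general STAT5 targets and among related transcription factors, 2 to 6 among male-biased and 0 to 2 among female-biased genes, and 0 to 6 genes with a weight slope. The causes were not tested, other than that fewer livers were fitted. Depth limits Cux2 in NCACS livers, Socs1 and the female-biased genes that did not pass the filter.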
